A study of Homo sapiens with 24 samples.

Results

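Later shared opened promoters are regions whose accessibility was called increased after 8 h of CDK9 inhibition in both OCI-LY3 and VAL cells, was not called increased in both lines at 3 h, and which lay within 1 kb of an annotated transcription start site (TSS). They were selected on the deposited calls themselves. Regions with equal coordinates in both lists of regions increased at 8 h numbered 2327. Of these, 615 were also in both lists of regions increased at 3 h and 1712 were not, and 880 of the 1712 (51.4%) lay at promoters. These 880 regions made up 3.34% of the 26369 distinct regions in the 8 deposited lists.

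OCI-LY3 and VAL are human diffuse large B-cell lymphoma cell lines. They were treated with AZD4573, a selective inhibitor of the kinase CDK9, at 30 nM for 0, 3 or 8 h, and the deposited lists call the control DMSO. Each of the 6 conditions had 4 ATAC-seq libraries, 24 in all, and by the sample labels each condition had 2 libraries made by standard ATAC-seq from 50000 cells and 2 made by Fast-ATAC from 5000, where the methods text instead gives 50000 for Fast-ATAC. Peaks had been called by library and merged by the authors, who tested the read counts of 3 h and of 8 h against 0 h within each line (DESeq2), so the 3 h and 8 h calls of a line share their 0 h libraries. The sources used here do not say which libraries entered each test, or whether the 2 protocols were modelled. A call required a change of at least 1.5 times and an adjusted p under a limit for which both 0.01 and 0.05 are given in the sources used here, so which limit applies to the lists is not known. Neither line carries an engineered allele by the labels, and nothing in them says whether libraries came from separate cultures. The lists hold coordinates and no value per library. Depth, the size of each change and its spread over libraries are thus not known, and a region missing from a 3 h list was not called at 3 h, which does not show that its accessibility was as at 0 h.

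CDK9 is the kinase of P-TEFb, which phosphorylates RNA polymerase II and pausing factors so that a polymerase held shortly after the start site is released into elongation. ATAC-seq uses a transposase to tag accessible DNA, and most active promoters are open over the nucleosome-depleted stretch around the TSS. Many housekeeping genes start from promoters rich in CpG dinucleotides, often with a second TSS on the opposite strand, and such promoters carry sites for factors such as SP1, NRF1, YY1 and the ETS family.

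Promoter sequences of 6 genes with such a region are printed to show where the motifs searched can lie. They were chosen as the genes of different functional lists with the most different motifs near the TSS and are not typical: of the windows searched at the 880 regions, 164 held none of the 12 motifs, 401 held 1, 247 held 2, 59 held 3 and 9 held 4. The sequences run from 250 bp before to 29 bp after the TSS on the transcribed strand of GRCh37 (hg19). Capitals mark matches to the motifs searched, on either strand.
NFKBIB: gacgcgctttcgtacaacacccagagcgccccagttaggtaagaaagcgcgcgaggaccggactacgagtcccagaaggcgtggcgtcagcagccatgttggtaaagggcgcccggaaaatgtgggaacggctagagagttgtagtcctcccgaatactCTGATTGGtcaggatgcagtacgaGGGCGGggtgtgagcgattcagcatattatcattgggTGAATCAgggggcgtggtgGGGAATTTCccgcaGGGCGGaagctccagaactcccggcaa
PIAS4: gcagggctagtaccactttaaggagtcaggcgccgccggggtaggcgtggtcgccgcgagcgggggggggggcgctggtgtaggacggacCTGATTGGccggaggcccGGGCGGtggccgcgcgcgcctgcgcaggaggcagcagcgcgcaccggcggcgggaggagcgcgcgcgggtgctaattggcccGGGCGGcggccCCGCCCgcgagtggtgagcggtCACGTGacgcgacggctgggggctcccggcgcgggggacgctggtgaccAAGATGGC
HSPA1B: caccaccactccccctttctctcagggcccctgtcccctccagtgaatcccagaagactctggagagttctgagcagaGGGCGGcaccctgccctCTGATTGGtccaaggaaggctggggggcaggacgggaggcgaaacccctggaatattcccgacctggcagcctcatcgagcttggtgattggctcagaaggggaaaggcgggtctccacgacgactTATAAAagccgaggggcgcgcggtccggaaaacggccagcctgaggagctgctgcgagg
KAT8: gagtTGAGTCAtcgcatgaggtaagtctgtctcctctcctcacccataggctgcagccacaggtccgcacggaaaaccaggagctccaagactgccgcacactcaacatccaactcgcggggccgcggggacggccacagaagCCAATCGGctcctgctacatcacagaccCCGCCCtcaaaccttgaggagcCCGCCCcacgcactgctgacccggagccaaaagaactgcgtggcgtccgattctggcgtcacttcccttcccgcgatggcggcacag
MCM7: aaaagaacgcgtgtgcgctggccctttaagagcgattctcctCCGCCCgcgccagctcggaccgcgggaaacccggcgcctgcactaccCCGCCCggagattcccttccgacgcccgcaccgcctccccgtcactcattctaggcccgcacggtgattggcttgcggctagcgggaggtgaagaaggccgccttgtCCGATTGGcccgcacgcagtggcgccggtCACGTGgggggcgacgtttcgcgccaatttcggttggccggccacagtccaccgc
MRPL52: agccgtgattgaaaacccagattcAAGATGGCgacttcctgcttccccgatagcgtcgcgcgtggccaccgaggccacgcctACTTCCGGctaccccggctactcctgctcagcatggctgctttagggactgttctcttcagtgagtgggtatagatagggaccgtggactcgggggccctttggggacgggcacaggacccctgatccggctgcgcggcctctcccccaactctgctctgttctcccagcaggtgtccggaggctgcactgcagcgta

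The NFKBIB promoter, of the gene for the NF-kB inhibitor IkB-beta, lies at chr19:39390342-39390621 on the plus strand. It holds a CCAAT box 91 bp before the TSS, an AP-1 match 30 bp and an NF-kB match 11 bp before it, and a GC box on either side of the TSS. The PIAS4 promoter, of a SUMO ligase that inhibits STAT signalling, lies at chr19:4007484-4007763 on the plus strand. It holds 3 GC boxes, a CCAAT box, an E-box 27 bp before the TSS and a YY1 match that begins 22 bp after it. HSPA1B encodes an inducible HSP70 chaperone, and its promoter at chr6:31795265-31795544 (plus strand) is the only one of the 6 with a TATA box, 29 bp before the TSS. HSPA1B is nearly identical to a neighbouring HSP70 gene, and reads that aligned to more than 1 place had been removed.

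KAT8, an acetyltransferase of histone H4, has its promoter at chr16:31128735-31129014 on the plus strand, with 2 GC boxes and a CCAAT box 107 bp before the TSS. The promoter of MCM7, a subunit of the replicative helicase, lies at chr7:99698991-99699270 on the minus strand and holds a CCAAT box 54 bp and an E-box 25 bp before the TSS. The promoter of MRPL52, a mitochondrial ribosomal protein, lies at chr14:23299008-23299287 on the plus strand, with an ETS match 168 bp and a YY1 match 226 bp before the TSS.

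Of all regions in the lists, the 8 h calls of increased accessibility took in 42.2% in VAL, 16.6% in OCI-LY3 and 8.82% in both. At 3 h, 376 of the 880 later shared opened promoters (42.7%) were already listed as increased in VAL and 153 (17.4%) in OCI-LY3, while 351 (39.9%) were in neither list. None of the 880 was listed as decreased at 3 h in either line. These counts follow from the calls that defined the regions and carry no test. The lists of regions increased at 3 h were of unequal size, 3545 regions in VAL and 1852 in OCI-LY3.

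Lying within 1 kb of a TSS was the rule that chose the regions, so their closeness to it is a description. Of the 880, 813 (92.4%) covered a TSS. The midpoint lay a median of 127 bp from the nearest TSS, with quartiles of 45 and 279 bp. The nearest TSS belonged to a protein-coding gene for 736 regions and to a long non-coding RNA for 91. A TSS of 2 or more genes lay within 1 kb of 358 regions. The regions were 398 to 2968 bp wide with a median of 1601 bp, and 597 of them (67.8%) overlapped coding sequence. By base pairs, 44.9% of their sequence was annotated as intron, 21.8% as intergenic, 16.8% as UTR of a coding transcript and 9.52% as coding sequence. At the limit of 1 kb, the farthest regions kept were 994 bp from a TSS of LINC02691 and 992 bp from 1 of ARHGEF2, and the nearest left out were 1014 bp from 1 of UNC93B5 and 1037 bp from 1 of LINC02908.

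The widest region, 2968 bp at chr19:47219813-47222780, lay over a TSS of PRKD2, a protein kinase of the protein kinase D family that acts in lymphocyte receptor signalling. The next widest lay at LYL1, a basic helix-loop-helix factor of blood progenitors (2961 bp), and TICAM1, the adaptor of Toll-like receptor 3 (2930 bp). The narrowest, 398 bp, lay 746 bp from a TSS of SLCO4A1, an organic anion transporter. GC content ran from 34.7% at a region near BAGE2 to 79.3% at ZFTRAF1, with a median of 60.4%. VEGFB, a growth factor of the VEGF family, lay at 76.7% and NT5DC2 at 76.4%. At the lower end, the regions near CYCSP55 and RNU2-42P, a cytochrome c pseudogene and a snRNA pseudogene, had 38.9% and 39.6%. None of the 3 regions of lowest GC content covered a TSS.

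To ask what set these promoters apart, they were compared with 3 other classes of promoter regions in the lists: 475 opened in both lines at both 3 and 8 h, 3837 opened in VAL at 8 h and listed for OCI-LY3 at neither time, and 143 closed in both lines at 8 h. The calls that defined the classes were not compared. Features of sequence and position were, by two-sided Fisher's exact tests, with Benjamini-Hochberg adjustment over all 48 tests. Regions are not replicates of a condition, and neighbours on a chromosome may share what happens to them. Beside the main tests stands a count of the autosomes, of those with regions of both classes, on which the difference had the same sign. With no test, a TSS was covered by 97.7% of the regions opened at both times, 88.7% of the VAL-only class and 71.3% of the closed class, beside the 92.4% above.

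CpG-rich promoters were common among the later shared opened promoters, though less so than among either other opened class. A region was called CpG-island-like when its GC content was over 50% and its ratio of observed to expected CpG over 0.6. This held for 589 of 880 later shared opened promoters (66.9%, 95% Wilson interval 63.8 to 70.0), 76.6% of those opened at both times (odds ratio 0.619, adjusted p = 0.000972, 15 of 21 autosomes), and 71.7% of the VAL-only class (odds ratio 0.798, adjusted p = 0.0177, 14 of 22 autosomes). Among promoters closed in both lines the share was 26.6% (odds ratio 5.54, adjusted p = 2.97e-18, 19 of 20 autosomes). That odds ratio fell to 2.26 within 5 classes of GC content (adjusted p = 0.0190) and to 2.67 with protein-coding TSSs only (adjusted p = 0.00183). The difference from the VAL-only class was lost, at an odds ratio of 1.02, when regions were compared within 5 classes of GC content (adjusted p = 0.928). That from the class opened at both times was lost with protein-coding TSSs only (odds ratio 0.778, adjusted p = 0.178) and with limits of 0.75 for the CpG ratio and 55% for GC content (0.778, adjusted p = 0.0846).

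Within the later shared opened promoters, the CpG-island-like share was 74.2% (95% Wilson interval 69.6 to 78.4) of the 376 also called in VAL at 3 h, 65.4% (57.5 to 72.4) of the 153 called in OCI-LY3 at 3 h, and 59.8% (54.6 to 64.8) of the 351 called in neither. The differences among these 3 groups were not tested. The median GC content was 61.6%, 59.6% and 60.0% in the same order. Median width was 1607, 1579 and 1607 bp.

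**Figure D1:**
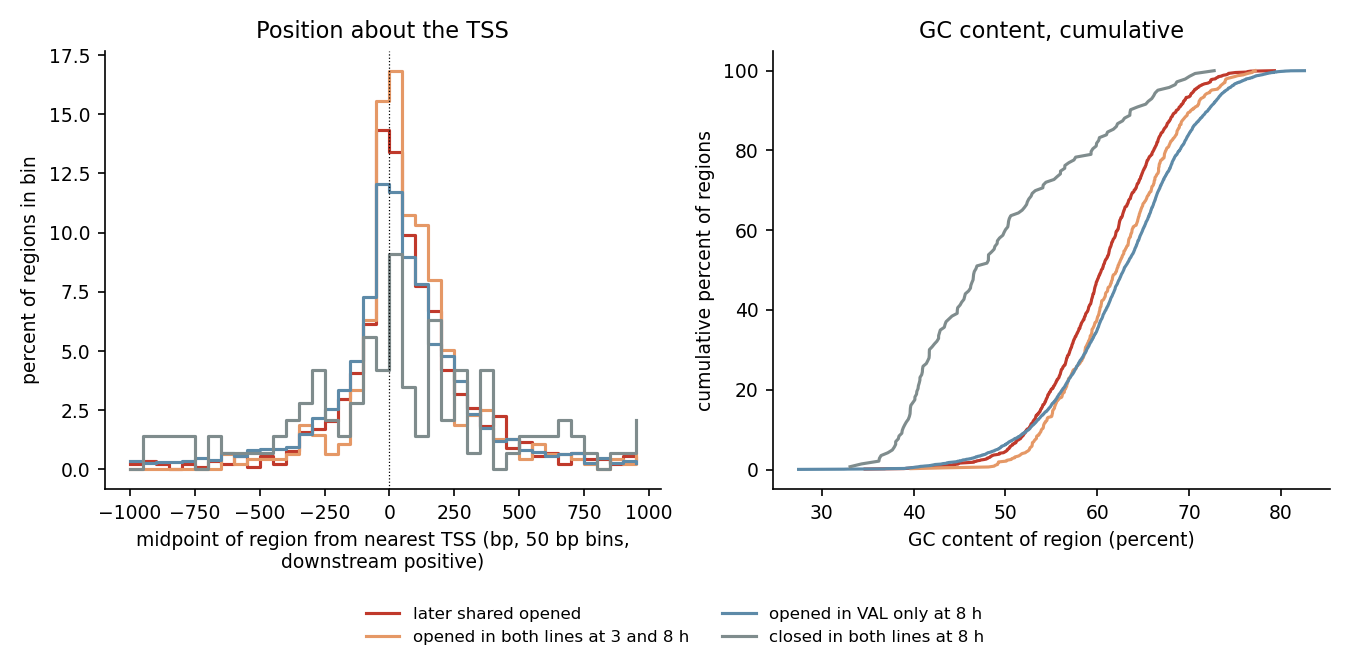
Left, the distance of each region's midpoint from the nearest TSS, in 50 bp bins from 1000 bp before to 1000 bp after it (x axis, downstream positive), against the percent of the class's regions in each bin. Right, the cumulative percent of regions by GC content. Later shared opened promoters (red, n = 880) peak at the TSS with a longer downstream side, and their median GC content of 60.4% lies below that of promoters opened at both times (62.1%) and of the VAL-only class (62.9%) and above that of closed promoters (46.8%).

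Region midpoints lay more often downstream than upstream of the start site, and where within a region accessibility rose is not known. The midpoint was downstream of the nearest TSS in 540 of 880 regions (61.4%, 95% Wilson interval 58.1 to 64.5), with a median offset of 44 bp. The share was 56.5% in the VAL-only class (odds ratio 1.22, adjusted p = 0.0262, 15 of 22 autosomes). This call was lost at a TSS distance of 500 bp (odds ratio 1.20, adjusted p = 0.0576) and with protein-coding TSSs only (odds ratio 1.10, adjusted p = 0.424). The test did not separate the later shared opened promoters from those opened at both times (65.5%, odds ratio 0.838 with a 95% interval of 0.664 to 1.06, adjusted p = 0.261) or from the closed ones (55.2%, odds ratio 1.29, interval 0.903 to 1.84, adjusted p = 0.278).

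Regions with TSSs on both strands within 1 kb were called divergent, with no check that the TSSs pointed apart. They made up 302 of 880 (34.3%, 95% Wilson interval 31.3 to 37.5). This was above the 27.5% of the VAL-only class (odds ratio 1.38, adjusted p = 0.000459, 16 of 22 autosomes). It was also above the 11.2% of closed promoters (odds ratio 4.04, adjusted p = 5.69e-08, 17 of 20 autosomes, and 2.46, adjusted p = 0.0125, within classes of GC content). It was below the 41.5% of promoters opened at both times (odds ratio 0.737, adjusted p = 0.0284, 16 of 21 autosomes), a call that was lost with protein-coding TSSs only (odds ratio 0.828, adjusted p = 0.400), at a TSS distance of 500 bp (0.758, adjusted p = 0.0576) and within classes of GC content (0.751, adjusted p = 0.0648). The window grows with the region, and median width was 1653 bp in the class opened at both times, 1501 bp in the VAL-only class and 1661 bp in the closed class. As an example, the region at chr22:18110809-18112391 covered TSSs of both ATP6V1E1, a subunit of the vacuolar proton pump, and BCL2L13, a BCL2-related protein of mitochondria, which are transcribed in opposite directions.

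A TSS of a protein-coding gene lay within 1 kb of 779 of 880 regions (88.5%, 95% Wilson interval 86.2 to 90.5). The share was 94.5% among promoters opened at both times (odds ratio 0.453, adjusted p = 0.0013, 14 of 21 autosomes), 83.3% in the VAL-only class (odds ratio 1.54, adjusted p = 0.000459, 17 of 22 autosomes) and 49.7% among closed promoters (odds ratio 7.79, adjusted p = 9.94e-23, 18 of 20 autosomes). Within classes of GC content the odds ratio against closed promoters fell to 2.90 (adjusted p = 0.000534). On this share the later shared opened promoters lay between promoters opened at both times and the VAL-only class.

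**Figure D2:**
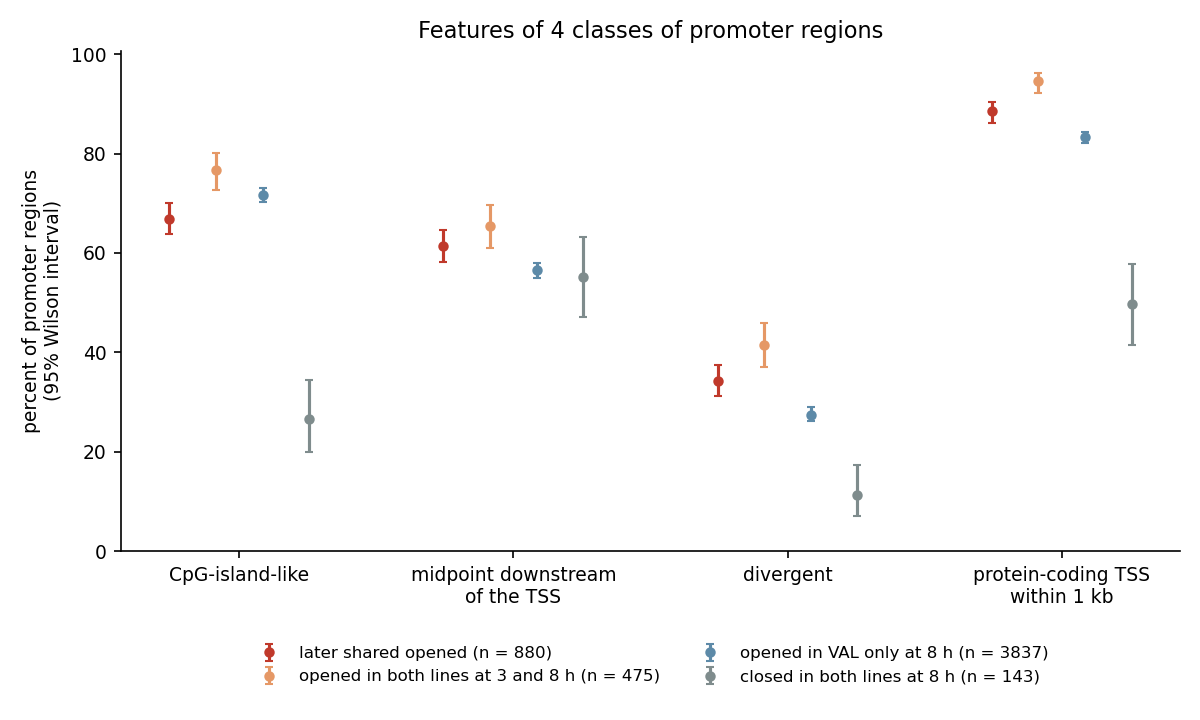
Percent of promoter regions (y axis) in each of 4 classes that were CpG-island-like, had their midpoint downstream of the TSS, were divergent or had a protein-coding TSS within 1 kb. Points are shares and bars 95% Wilson intervals. Later shared opened promoters (red) stand at 66.9%, 61.4%, 34.3% and 88.5%, and closed promoters (grey) are lowest in all 4 features.

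Motifs of 12 kinds were searched on both strands from 250 bp before to 49 bp after the TSS nearest to the midpoint. They were ETS (CCGGAAGT), NRF1 (CGCATGCG), the GC box of SP factors (GGGCGG), the CCAAT box of NFY (CCAATCNG), CRE of CREB and ATF factors (TGACGTCA), the E-box of MYC and USF factors (CACGTG), YY1 (AAGATGGC), ZNF143 (ACTACAAT), AP-1 (TGANTCA), NF-kB (GGGANTTTC), CTCF with at most 1 mismatch, and the TATA box (TATAAA, sense strand only, between 45 and 15 bp before the TSS). Overlapping matches to different motifs were each counted. The window lay wholly inside the region for 789 of the 880, so at the others a match can lie outside it. Of the 880 later shared opened promoters, 164 held no match, 401 held matches to 1 motif, 247 to 2, 59 to 3 and 9 to 4. A match is a string of letters and does not show that a factor was bound.

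The ETS motif, bound by factors such as GABPA and ELK1, occurred in 87 of 880 later shared opened promoters (9.89%, 95% Wilson interval 8.09 to 12), beside 6.16% of the 19870 protein-coding promoters taken at their canonical TSS. It occurred in 14.5% of promoters opened at both times (odds ratio 0.645, adjusted p = 0.0351, 13 of 21 autosomes), in 6.67% of the VAL-only class (odds ratio 1.54, adjusted p = 0.00548, 18 of 22 autosomes) and in 0.699% of closed promoters (odds ratio 10.5, adjusted p = 0.00026, 18 of 20 autosomes). The call against the class opened at both times was lost over whole regions (odds ratio 0.714, adjusted p = 0.0554) and with protein-coding TSSs only (0.713, adjusted p = 0.163). That against the VAL-only class was lost within classes of GC content (1.37, adjusted p = 0.0672) and in 200 bp around the midpoint (1.23, adjusted p = 0.432). Against closed promoters, of which 1 of 143 held the motif, the odds ratio ran from 5.34 over whole regions to 16.9 within classes of GC content.

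NRF1, a factor of respiratory and other housekeeping genes, had its motif in 47 later shared opened promoters (5.34%) and in 2.85% of all protein-coding promoters. The share was 3.52% in the VAL-only class (odds ratio 1.56, adjusted p = 0.0398, 12 of 22 autosomes), a call lost within classes of GC content (1.40, adjusted p = 0.159), in 200 bp around the midpoint (1.05, adjusted p = 0.926) and with protein-coding TSSs only (1.51, adjusted p = 0.100). It was 4.21% among promoters opened at both times (adjusted p = 0.591). No closed promoter held it, 0 of 143, which by a limit of 3 counts allows a share of up to 2.10% and by the Wilson interval up to 2.62% (adjusted p = 0.00436 for the difference, 12 of 20 autosomes). With 0.5 added to each count the odds ratio was 16.4, with a 95% interval of 1.00 to 267. In 200 bp around the midpoint (5.14, adjusted p = 0.399) and with protein-coding TSSs only (9.27, adjusted p = 0.100) the direction was the same and the call was lost.

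YY1, a zinc finger factor whose sites often lie just after the start of transcription, matched 6.93% of later shared opened promoters, 4.06% of all protein-coding promoters and 0.699% of closed ones (odds ratio 7.13, adjusted p = 0.00452, 13 of 20 autosomes). This call was lost in 200 bp around the midpoint (odds ratio 2.17, adjusted p = 0.382). The share was 9.05% among promoters opened at both times (odds ratio 0.746, adjusted p = 0.278) and 5.24% in the VAL-only class (odds ratio 1.35, adjusted p = 0.101), and neither difference passed. Of its 63 matches in the later shared opened promoters, 55.6% lay after the TSS, beside 16.7% if matches were spread evenly over the window. ETS matches lay otherwise, with 58.2% of 98 in the last 100 bp before the TSS, where an even spread would put 33.3%. Of 25 CRE matches 72.0% lay in those 100 bp, as did 49.8% of 1484 GC box matches.

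The GC box was the commonest element, in 610 later shared opened promoters (69.3%) and in 61.4% of all protein-coding promoters. Its share was 74.9% among promoters opened at both times (adjusted p = 0.0739), 71.8% in the VAL-only class (adjusted p = 0.264) and 31.5% among closed promoters (odds ratio 4.89, adjusted p = 3.23e-16, 19 of 20 autosomes). AP-1 went the other way, in 4.55% of later shared opened promoters, 5.40% of all protein-coding promoters and 14.7% of closed ones (odds ratio against closed ones 0.275, adjusted p = 0.000233, 10 of 20 autosomes). Within classes of GC content neither passed (GC box 1.69, adjusted p = 0.139, and AP-1 0.491, adjusted p = 0.159). The remaining 7 motifs passed against none of the 3 classes. Among them, the CCAAT box matched 11.3% of later shared opened promoters and 8.51% of all protein-coding ones, the E-box 10.2% and 8.76%, CRE 2.73% and 2.68%, CTCF 2.39% and 2.40%, NF-kB 1.48% and 1.20%, the TATA box 1.14% and 3.95%, and ZNF143 0.682% and 0.674%.

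**Figure D3:**
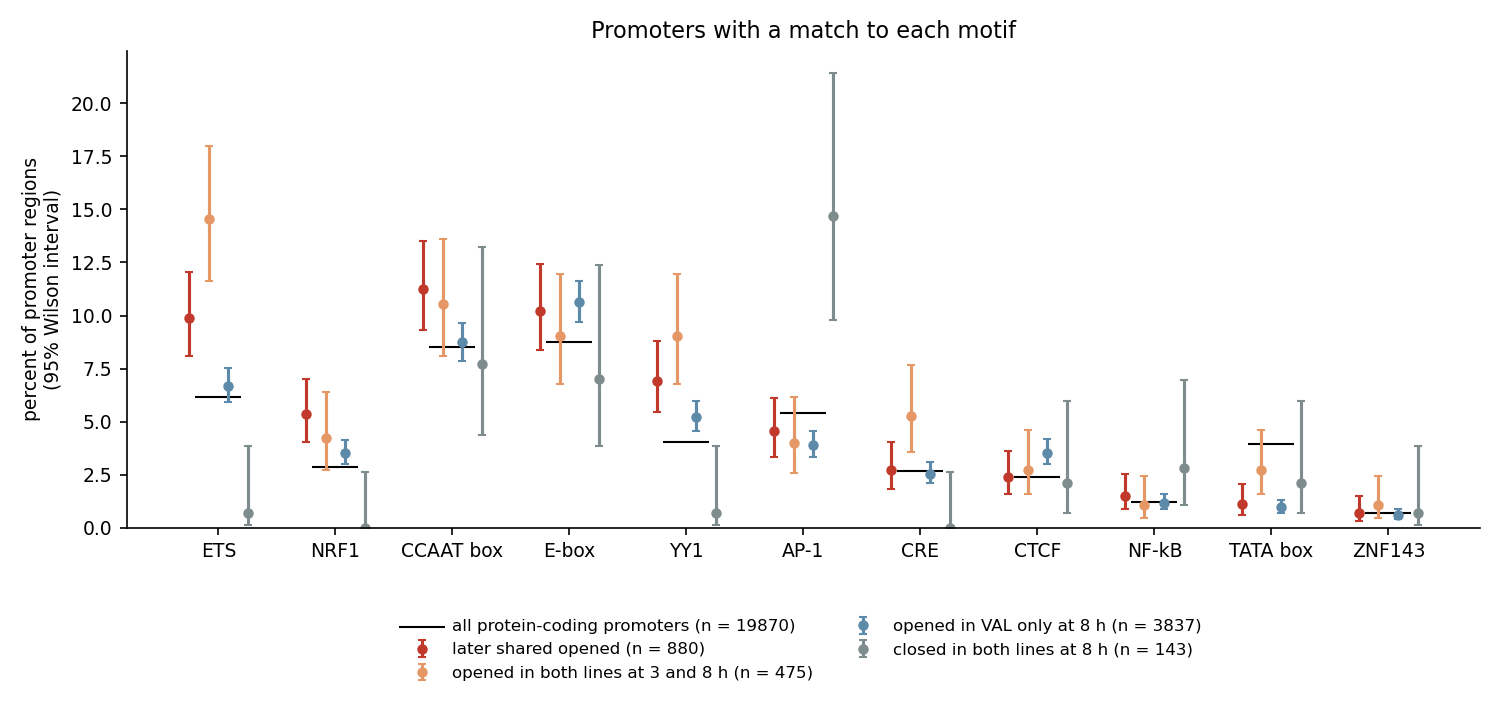
Percent of promoters (y axis) with a match to each of 11 motifs in the window from 250 bp before to 49 bp after the TSS, by class, with 95% Wilson intervals. Black lines give the share over 19870 protein-coding promoters, and the GC box, at 69.3% of later shared opened promoters, is left out for scale. Later shared opened promoters (red) lie between the class opened at both times (orange) and the VAL-only class (blue) for ETS, and closed promoters (grey) are highest for AP-1.

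Motif shares were also counted in the 3 groups by 3 h call, with no test. The ETS motif occurred in 10.4% (95% Wilson interval 7.68 to 13.9) of those also called in VAL at 3 h, 15.7% (10.8 to 22.3) of those called in OCI-LY3 and 6.84% (4.64 to 9.97) of those called in neither. YY1 occurred in 10.4%, 6.54% and 3.42%, and NRF1 in 7.18%, 5.88% and 3.13%. AP-1 was highest in the last group, at 3.99%, 3.27% and 5.70%, while NF-kB (1.60%, 1.31% and 1.42%) and CTCF (1.86%, 3.27% and 2.56%) followed neither order.

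The regions were spread unevenly over the chromosomes. They lay within 1 kb of a TSS of 949 protein-coding genes, 4.71% of 20163. On chromosome 19 this held for 247 of 1480 genes (16.7%, 95% Wilson interval 14.9 to 18.7), on chromosome 16 for 12.5%, on chromosome 17 for 8.24% and on chromosome 11 for 6.76%. On chromosome 4 it held for 1 of 761 genes and on chromosome X for 5 of 869. Chromosome 19 alone carried 221 of the 880 regions (25.1%), beside 7.34% of protein-coding genes. The pattern was not particular to these regions. Promoters opened at both times had 109 of 475 (22.9%) on chromosome 19, and the difference was not tested. They had 13.3% on chromosome 16 and 10.7% on chromosome 17, beside 11.4% of the later shared opened promoters on each. The other 2 classes had less on chromosome 19, with 10.7% of the VAL-only class and 1.40% of closed promoters.

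This order was not that of VAL. The rule took only regions increased at 8 h in both lines, so on no chromosome can their share exceed that of either line. The comparison with each line is thus a description. Any region increased in VAL at 8 h lay at 63.6% of the protein-coding genes of chromosome 22, its highest share, at 54.6% on chromosome 17 and 50.1% on both chromosomes 16 and 19. In OCI-LY3 the shares were highest on chromosomes 19 (28.2%) and 16 (21.5%), and chromosome 22 stood at 6.44%. Later shared opened promoters lay at 4.67% of the genes of chromosome 22, close to the share over all chromosomes. The median GC content of promoters was 67.3% on chromosome 22 and 63.3% on chromosome 19. The part of base composition in this order was not tested.

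**Figure D4:**
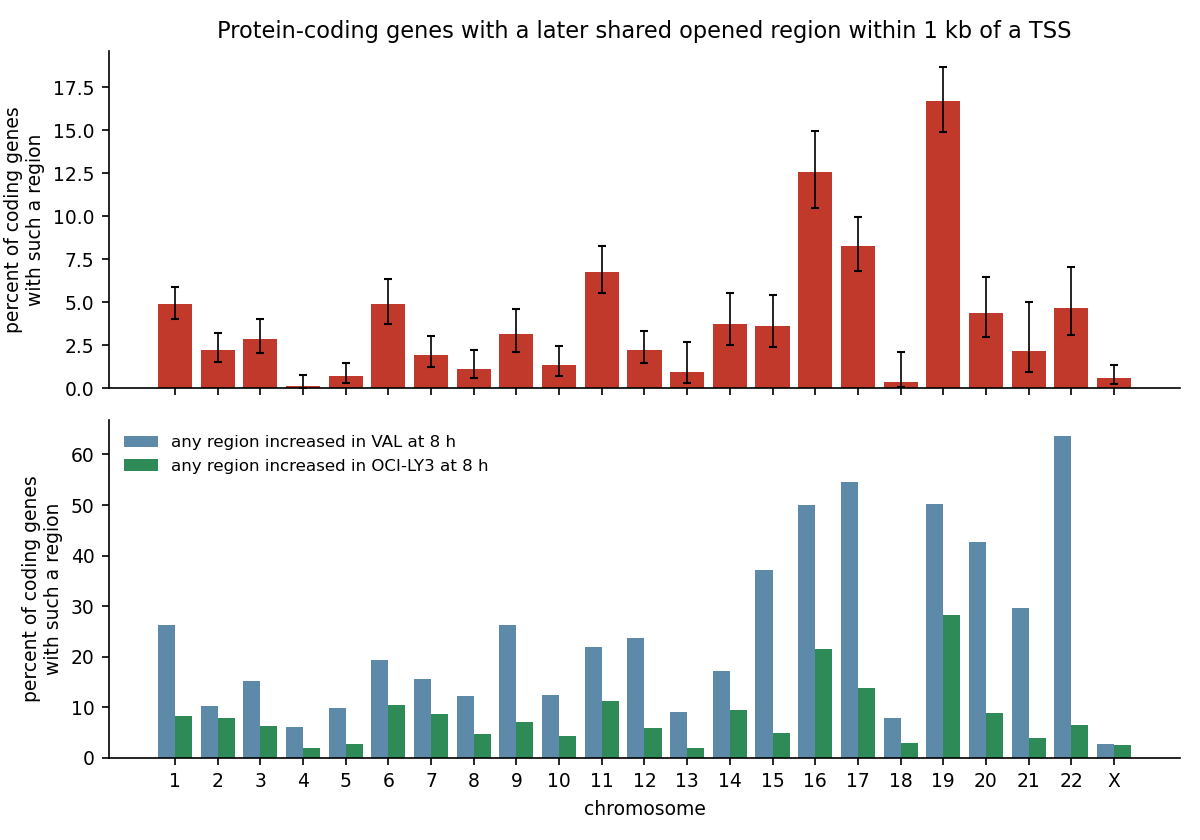
Percent of the protein-coding genes of each chromosome (x axis) with a later shared opened region within 1 kb of a TSS (top, bars with 95% Wilson intervals) and with any region increased in VAL (blue) or OCI-LY3 (green) at 8 h (bottom). Chromosomes 19 and 16 are highest in the top panel at 16.7% and 12.5%, while chromosome 22 is highest in VAL at 63.6% and stands at 6.44% in OCI-LY3.

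Many of the regions lay near other opened regions. Another region increased in VAL at 8 h lay within 10 kb of 402 of the 880 (45.7%), and another region increased in OCI-LY3 within 10 kb of 231 (26.3%). A region decreased in VAL lay that close to 3 of them and 1 decreased in OCI-LY3 to 4. Among promoters opened at both times, 50.3% lay that close to another region increased in VAL and 27.4% to 1 increased in OCI-LY3. The same shares were 33.3% and 13.2% in the VAL-only class and 4.90% and 3.50% among closed promoters. These neighbours come from the same comparisons as the rule and are given as a description. When regions within 10 kb were joined, the 880 formed 831 loci, of which 789 held a single region. The largest held 4 each. One spanned chr17:8054182-8079970 around PER1, a core repressor of the circadian clock, and TMEM107, a protein of the ciliary transition zone. The other spanned chr19:49127188-49150457 around DBP, a clock-controlled transcription factor, and CA11, a carbonic anhydrase-related protein.

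The genes at these promoters were counted in 24 functional lists, beside the share over all protein-coding genes. For the other classes that share was 2.8% for promoters opened at both times, 17.4% for the VAL-only class and 0.367% for closed promoters. The lists were written with earlier results of these data known and carry no test. Of the 24, 10 had a 95% Wilson interval that lay wholly above 4.71%, and in the other 14 it included that share.

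Genes of protein synthesis had shares above the 4.71% of all protein-coding genes. Of 88 genes of cytosolic ribosomal proteins and their relatives, 16 (18.2%, 95% Wilson interval 11.5 to 27.5) had a later shared opened region, 15 had a region opened at both times, 17 a VAL-only region and 0 a closed one. RPL27 had its region at chr17:41149664-41151312, 1649 bp wide and centred on the TSS, and called at 3 h in neither line. The region of RPL19 was centred 2 bp from the TSS and was also called in VAL at 3 h. Of 79 genes of mitochondrial ribosomal proteins, 12 (15.2%) had such a region, including MRPL24 and MRPL9, and of 71 genes of translation factors 9 did (12.7%). Among the latter were EIF2AK4, the kinase GCN2 that senses amino acid lack, EIF4H, EIF3A and EIF5. Of 49 proteasome genes, which serve protein breakdown, 5 had such a region (10.2%, 95% Wilson interval 4.44 to 21.8, which includes 4.71%), namely PSMB2, PSMD4, PSMD13 and the activator subunits PSME1 and PSME3.

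Of 33 genes of Mediator, the bridge between enhancer-bound factors and RNA polymerase II, 6 had a later shared opened region (18.2%, 95% Wilson interval 8.61 to 34.4): MED11, MED15, MED16, MED20, MED25 and MED31. That of MED15 lay at chr22:20861132-20862642 and was centred 2 bp before the TSS. MED8 alone had a region opened at both times. Of 35 genes of P-TEFb, pausing and elongation, 1 had a later shared opened region (2.86%, 95% Wilson interval 0.506 to 14.5), RTF1, an elongation factor that works with the PAF complex. In that list 5 genes had a region opened at both times, namely CDK12, NELFB, NELFE, SUPT5H and SUPT6H. A VAL-only region lay at 10 of the 33 and 13 of the 35 genes. The intervals of the Mediator and elongation lists overlap, and the difference between them was not tested. Of 57 genes of RNA polymerase II and the general factors, 4 had a later shared opened region (7.02%), namely GTF2H4, POLR2L, TAF15 and TAF5L, and of 49 SR, hnRNP and other splicing factor genes 6 did (12.2%), among them SRSF6 and U2AF2.

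Zinc finger genes, many of which lie in clusters on chromosome 19, had 35 of 519 with a later shared opened region (6.74%, 95% Wilson interval 4.89 to 9.23), 29 with a region opened at both times and 91 with a VAL-only region. Over all protein-coding genes of chromosome 19 the share with a later shared opened region was 16.7%. The region of ZNF207, a spindle assembly protein, was centred 3 bp from its TSS on chromosome 17. Of 79 chromatin modifier genes 9 had a later shared opened region (11.4%). They included SMARCA4 (chr19:11070937-11072477), the ATPase BRG1 of the SWI/SNF remodellers, SMARCC1 of the same complexes, the histone methyltransferases KMT2B and SETD2, the demethylase KDM5C, the maintenance DNA methyltransferase DNMT1 and KAT8. Of 64 replication-dependent histone genes, 0 had such a region (95% Wilson upper limit 5.66%) and 8 had a VAL-only one. Of 14 AP-1 genes, also 0 did (upper limit 21.5%), while JUNB had a region opened at both times and 4 had a VAL-only region. Both upper limits lie above 4.71%, so neither count of 0 sets its list apart from all genes.

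B-cell genes were among the later shared opened promoters. Of 44 genes of B-cell identity and receptor signalling, 6 had such a region (13.6%, 95% Wilson interval 6.40 to 26.7). CD79A, a signalling chain of the B-cell receptor, had its region at chr19:42380680-42382229, with a CpG ratio of 0.163, below the CpG-island limit. IRF8, a transcription factor of germinal centre B cells, had its region at chr16:85935639-85937423, centred 236 bp after the TSS, and called at 3 h in neither line. MEF2B, a germinal centre factor, was called in OCI-LY3 at 3 h, and ID3, an inhibitor of E proteins, in VAL at 3 h. POU2F2, the octamer factor OCT2, and VAV1, an exchange factor of receptor signalling, completed the 6. CD79B, SPI1 and SPIB instead had regions opened at both times.

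In the cytokine and NF-kB pathways, 5 of 27 JAK-STAT and SOCS genes had a later shared opened region (18.5%, 95% Wilson interval 8.18 to 36.7) and 9 had a VAL-only region. None had a region opened at both times, where the share over all genes was 2.8% (17.4% for VAL-only). The 5 with a later shared opened region were the kinases JAK3 and TYK2, the cytokine receptor IL21R, and 2 inhibitors of the pathway, SOCS1 and PIAS4. Of these, JAK3, TYK2 and PIAS4 lie on chromosome 19 and SOCS1 on chromosome 16, where 16.7% and 12.5% of all protein-coding genes had such a region. The SOCS1 region, at chr16:11348738-11350720, was called at 3 h in neither line. Of 31 NF-kB pathway genes 3 had such a region (9.68%), namely RELA, the p65 subunit, NFKBIB and the adaptor TRAF2. TNF and LTA, neighbouring cytokine genes on chromosome 6, each had a region that was also called in OCI-LY3 but not in VAL at 3 h, the TNF region at chr6:31542853-31544276 and the LTA region at chr6:31539562-31540745. Their list of TNF ligands and receptors stood at 2 of 44 (4.55%), near the share over all genes.

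Among genes of stress, death and proliferation, CDKN1A, the cyclin-dependent kinase inhibitor p21, had a region of 2927 bp at chr6:36645939-36648865. It was centred 904 bp after the TSS and was also called in VAL at 3 h. Of 17 BCL2 family genes 2 had such a region (11.8%), the pro-apoptotic BAD, and BCL2L13, while MCL1 and BAX had regions opened at both times. Of 25 heat shock genes 4 did (16%), namely HSP90AB1, DNAJB1, STIP1 and HSPA1B. Of 30 immediate early genes 3 did (10%), SRF, BTG2 and DUSP2. The 5 of 54 genes of the cell cycle and replication (9.26%) included MCM7, CDC6, a loading factor of the same helicase, and the mitotic kinases AURKB and BUB1. The 3 of 39 DNA repair genes (7.69%) were BRCA1, FANCA and LIG1. The 3 of 29 genes of PIM kinases, PI3K and AKT were AKT1S1, PDPK1 and GSK3A, the 5 of 57 lysosome and autophagy genes included GABARAP and LAMTOR5, and the 1 of 28 ETS factor genes was ERF.

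**Figure D5:**
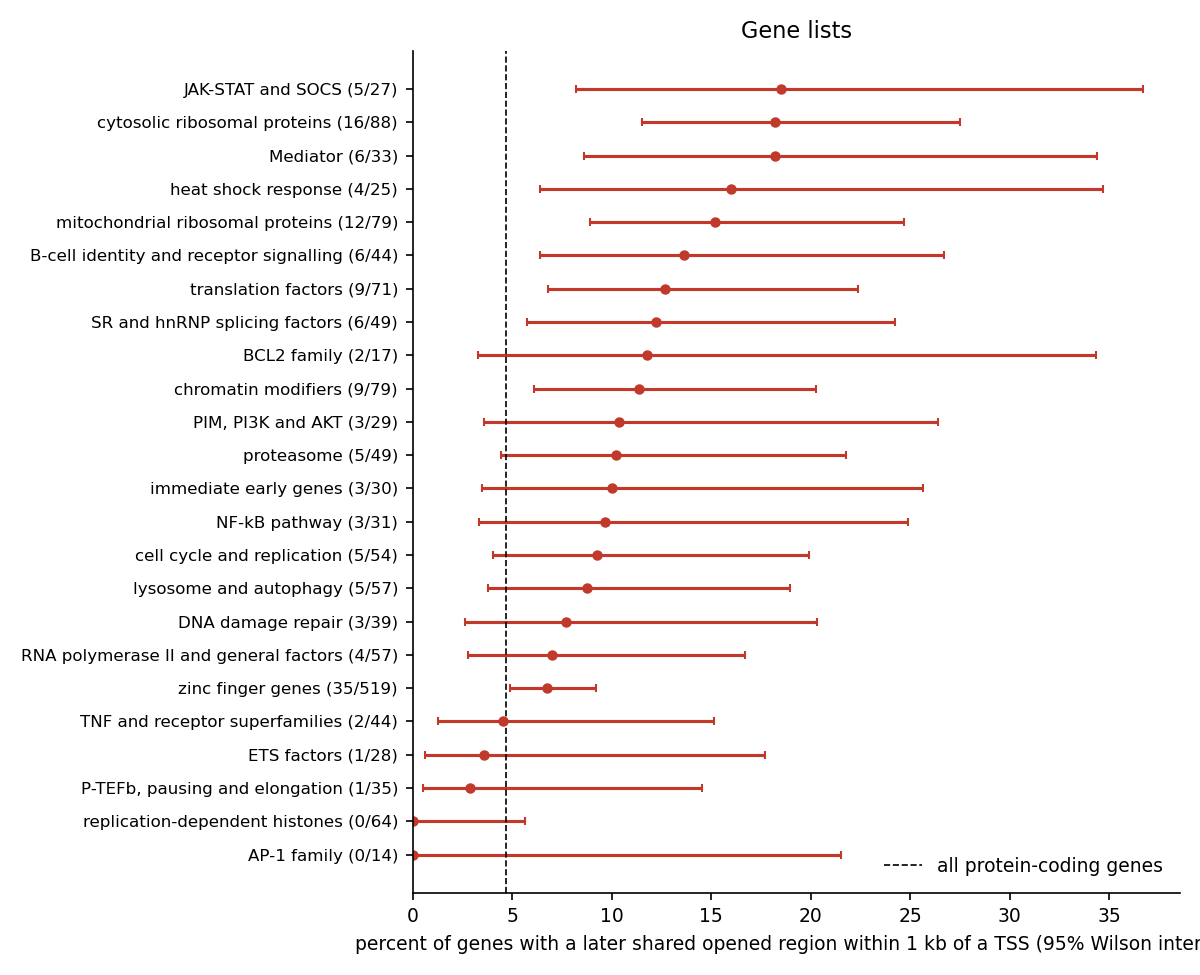
Percent of the genes of each of 24 lists with a later shared opened region within 1 kb of a TSS (x axis), with 95% Wilson intervals and the counts beside each name. The dashed line marks the 4.71% over all protein-coding genes. JAK-STAT, cytosolic ribosomal protein and Mediator genes have the highest shares at 18.5%, 18.2% and 18.2%, and in 14 of the 24 lists the interval includes the dashed line.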

How the data were processed

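The deposited lists hold 3 columns, the chromosome, start and end of each region, and no value per library, so there were 0 columns of per-sample values. Per the study's methods, the authors used Bowtie2 for alignment to hg19, dropped mitochondrial, non-unique and duplicate reads, and used MACS2 to call peaks by sample, bedtools to merge them and DESeq2 to test the counts. A shift of reads for the transposase offset is not given in the sources used here. The unit taken from the deposited files is other (coordinates in bp).

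Regions were matched between lists by equal coordinates and annotated with basic transcripts of GENCODE 44 lifted to GRCh37. Sequence came from GRCh37. The tools were statsmodels 0.14.6, scipy 1.17.1, pysam 0.24.0, pandas 2.3.3, numpy 2.4.6 and matplotlib 3.10.9 under Python 3.11.15. Fisher's exact test (two-sided, over regions) compared shares, with Benjamini-Hochberg adjustment at a threshold of 0.05. For odds ratios, 0.5 was added to every cell, with 95% Wald intervals, and stratified ones are Mantel-Haenszel estimates over 5 classes of GC content. All intervals cover counting error only. The search and tests were tested on simulated data.

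The regions, lists, motifs and comparison classes were chosen with earlier results of these data known. Genes were named by rule: in each list, up to 4 with their TSS nearest to the region's midpoint, then the 3 regions at each end of width and of GC content, the 2 nearest the TSS limit on either side, up to 6 promoters for their sequences, and genes the paper names. The last part was read more widely than first written, to take in genes named with recovery or super-enhancers. Only IRF8 and CDKN1A were named under it as having such a region, and the paper names others there, among them BCL2L1, CXCR4 and PIM1. PIM3 and JUNB, named for accessibility, had no such region (JUNB was among the promoters opened at both times). Other listed genes, the joined loci and the genes of other classes were named after their values were seen. Some genes and 1 list are not reported here.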

Additional observations from a re-analysis of the deposited data

How the results depend on the processing

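The number of later shared opened promoters, 880, ranged from 659 without chromosome 19 to 942 with a TSS distance of 2 kb, and 50% reciprocal overlap in place of equal coordinates left it at 880. Of 109 alternatives, 80 kept the direction and the side of the threshold, or a count within 1.5 times, and 1 reversed: within classes of GC content, an alternative chosen after seeing the data for the 4 shares, the CpG-island-like odds ratio against the VAL-only class was 1.02. The number of motifs past the threshold, 1 against promoters opened at both times, became 2 in 200 bp around the midpoint, 2 over whole regions and 2 without chromosome 19. Against the VAL-only class it was 2 and became 1 around the midpoint, 6 over whole regions, 1 with protein-coding TSSs only and 0 within classes of GC content. Against closed promoters it was 5 and became 3 around the midpoint and 3 within classes of GC content. The CpG-island-like share against promoters opened at both times no longer passed with protein-coding TSSs only (0.778) or with limits of 0.75 and 55% (0.778). The downstream share against the VAL-only class was lost at 500 bp (1.20) and with protein-coding TSSs (1.10), and the divergent share against promoters opened at both times at 500 bp (0.758), with protein-coding TSSs (0.828) and within classes of GC content (0.751). The cause of these changes was not tested. Within classes of GC content, NRF1 against closed promoters gave no odds ratio. No paired analysis was possible because the deposited lists carry no measurement from single libraries. For the same reason no library could be left out, and the limit set by depth is not known.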
